A study of Mus musculus with 2 samples.

Results

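The MHC class II genes and their activator gene Ciita were examined in DNase-seq data from mouse naive CD8 T cells, cells that are not known for presenting antigen on class II. The 9 members were chosen by name: Ciita, H2-Aa, H2-Ab1, H2-Eb1, Cd74, H2-DMa, H2-DMb1, H2-Oa and H2-Ob, out of 21827 protein-coding gene symbols of the annotation. Each member was described by the peaks at its start sites, the peaks and footprints in its locus (the gene body with 25 kb either side) and the sequence under them. DNase-seq marks open chromatin by sequencing the ends of DNA that the enzyme DNase I cuts in nuclei. A footprint is a short stretch inside open chromatin that is cut less than its surroundings, as where a protein covers the DNA.

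The samples formed 1 group of 2 libraries. The cells were CD8-positive alpha-beta T cells labelled naive and resting, taken as primary cells from virgin male adult mice at 2 months of age. The mice were B6CASTF1/J, a first-generation cross of inbred strains, and no treatment is given. The labels number the libraries biological replicates 2 and 3, with technical replicate 1 each, and these numbers name them here. Both carry 1 donor label and no source here says that separate animals were used, so differences between them may be technical. There was no second condition, so nothing was compared between groups and no p-value was computed.

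Replicate 2 gave more calls, with 38223 peaks in the stricter of its peak lists and 53597 in the permissive one. Replicate 3 had 17061 and 24844. Replicate 2 had 146244 footprints and replicate 3 had 29967. Each peak carries the authors' own signal value, whose scaling the labels do not state. If the smallest step between signals is 1 tag per 1000000, replicate 2 held 1.34e+08 tags and replicate 3 held 2.21e+07. A site without a peak in replicate 3, the library with fewer calls, is not shown to be closed, and signals are read mainly against other peaks of the same library.

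MHC class II molecules display peptides from ingested proteins to CD4 T cells and are made mainly by B cells, dendritic cells and macrophages. Their genes share a promoter module in which the X box is bound by the RFX complex and CREB, the Y box by NF-Y, and the coactivator CIITA is recruited by these factors together. CIITA does not bind DNA by itself, and its cell-type-restricted promoters are known to decide where class II is made. Mouse T cells, unlike activated human T cells, are generally class II negative.

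The X and Y boxes were searched in the members' loci and are shown first. The X box was searched as G, any 2 bases, AC, any 3 bases, TGA and any base, and the Y box as ATTGG after a gap of 18 to 22 bases, on either strand. This form and the gap range were chosen after the members' peaks had been inspected. In the lines that follow, from the GRCm38 (mm10) reference, the X box and the Y box are in capitals and each module is named by the distance of its centre from the nearest protein-coding start site, negative values lying upstream. The reference is the B6 sequence, so the CAST alleles of the hybrid mice are not represented. The lines for H2-DMa and H2-DMb1 stop before the Y box and show the X box alone, because a transcript leader is annotated there.
H2-Eb1 at -73 bp, chr17:34305770-34305815, plus strand: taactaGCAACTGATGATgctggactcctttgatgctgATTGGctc
H2-Eb1 at -918 bp, chr17:34304927-34304973, minus strand: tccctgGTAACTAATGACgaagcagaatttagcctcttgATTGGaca
H2-Ab1 at -41 bp, chr17:34263144-34263189, plus strand: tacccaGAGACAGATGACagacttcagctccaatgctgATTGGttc
H2-Ab1 at -5454 bp, chr17:34257730-34257776, plus strand: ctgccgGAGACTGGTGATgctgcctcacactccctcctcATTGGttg
H2-Aa at -3938 bp, chr17:34291737-34291782, plus strand: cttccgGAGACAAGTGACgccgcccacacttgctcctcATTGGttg
H2-Aa at -8454 bp, chr17:34296252-34296298, plus strand: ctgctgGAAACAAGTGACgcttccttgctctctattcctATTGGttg
H2-Ob at -68 bp, chr17:34238812-34238855, plus strand: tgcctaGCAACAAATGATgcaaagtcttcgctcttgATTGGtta
H2-DMa at -95 bp, chr17:34135508-34135537, plus strand: tcctcaGCGACTGATGATgttaaactatac
H2-DMb1 at 44 bp, chr17:34153091-34153120, plus strand: tacctaGTAACTGATGATgctaggctgatt
The H2-Aa promoter had a shorter X box, with 1 base fewer before TGA, and was found only by a looser search described later. Its line is oriented along the gene.
H2-Aa at -63 bp, chr17:34287864-34287910, minus strand: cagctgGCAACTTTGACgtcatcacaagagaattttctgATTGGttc

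At the promoters, the members ranged from a peak among the strongest in the data to no call at all. Promoters reach 1000 bp to each side of every protein-coding start site. A stricter peak lay in the promoter in both libraries for 1 of 9 members, H2-DMa, while 40.9% of all protein-coding genes had one. Counting replicate 2 alone, 6 of 9 members had a promoter peak, beside 50.5% of all genes. In replicate 3 alone it was 1 of 9, beside 40.9% of all genes. Ciita, H2-DMb1 and H2-Oa, 3 of 9, had a stricter promoter peak in neither library, beside 49.5% of all genes. No member had a promoter peak in replicate 3 without one in replicate 2. Among promoters with a peak in replicate 2, the median signal was 2.04 over the 6 members and 3.75 over 11019 protein-coding genes.

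**Figure D1:**
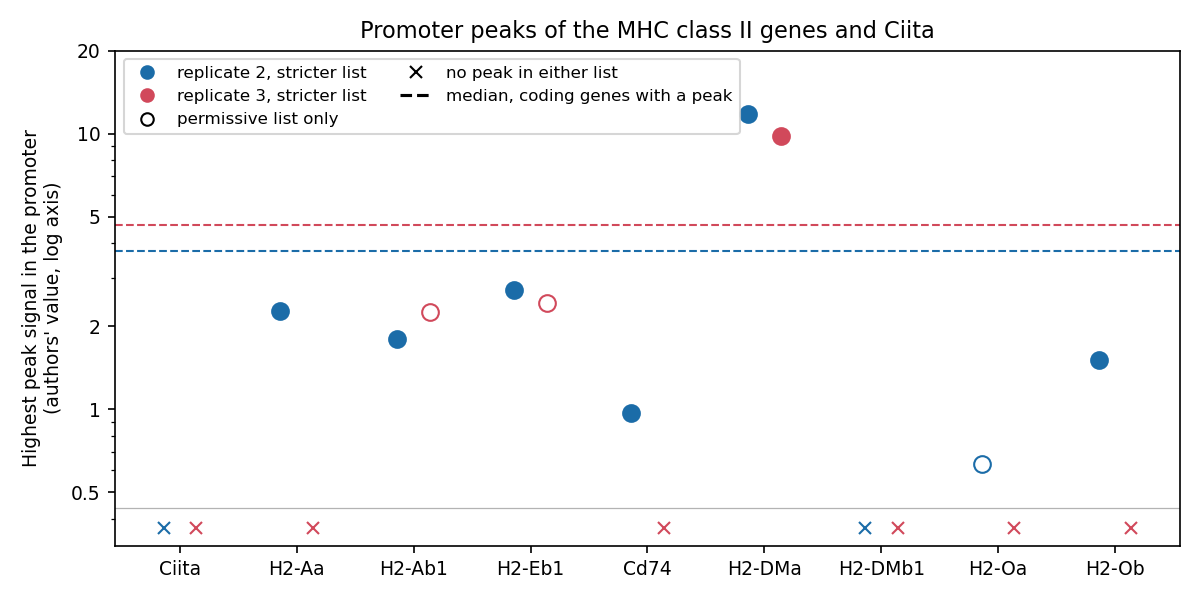
Highest peak signal in each member's promoter (log axis), replicate 2 in blue and replicate 3 in red. Filled points are stricter peaks, open points are peaks of the permissive list only, crosses below the grey line mark no peak, and dashed lines are the medians over protein-coding genes with a stricter peak (3.75 in replicate 2 and 4.65 in replicate 3). H2-DMa is the only member above these lines, at 11.8 and 9.80.

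Ciita, which encodes the class II transactivator, had no peak at any of its 5 annotated coding start sites, in either list of either library. The deposited list of false discovery rates, which runs up to 0.05, held no position inside these windows in either library. Over all protein-coding genes, 55.2% had such a position in replicate 2 and 46.5% in replicate 3. No footprint lay in the windows either. All 1514 of the 32-base words within 250 bp of the Ciita start sites occurred once in the reference chromosomes. In the gene body 92.9% did. The Ciita locus held 4 stretches of open chromatin in replicate 2. A pair of them lay in introns shared by Ciita and the overlapping gene Dexi, at chr16:10521301-10521500 with a signal of 1.04 and at chr16:10522921-10523120 with 1.17, both in replicate 2 only. The other pair were the promoters of the neighbours Dexi, with signals of 6.08 and 3.84 in replicates 2 and 3, and Clec16a, with 7.02 and 5.15. The activator's own start sites were thus the ones without calls in a locus whose neighbouring promoters were open in both libraries.

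H2-Eb1 encodes the beta chain of the classical molecule I-E. Its promoter peak, chr17:34305701-34305900, reached 2.71 in replicate 2, above 75.8% of that library's stricter peaks. In replicate 3 it was in the permissive list only, with 2.44. The peak is printed here up to the base before the start site, on the gene's strand, because it shows how footprints and boxes met, with the footprints of replicate 2 in capitals.
H2-Eb1 promoter, chr17:34305701-34305866, plus strand: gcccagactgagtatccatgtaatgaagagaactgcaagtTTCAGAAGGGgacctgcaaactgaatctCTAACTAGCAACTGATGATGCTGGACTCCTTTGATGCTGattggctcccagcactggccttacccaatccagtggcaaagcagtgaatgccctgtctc
The longer footprint ran over the whole X box and ended at the base before the Y box. A weaker peak at chr17:34304896-34305016, with 1.43 in replicate 2 and no call in replicate 3, held the inverted module at -918 bp.

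H2-Ab1 encodes the beta chain of I-A. Its promoter peak, chr17:34263061-34263360, had 1.81 in replicate 2 and 2.26 in the permissive list of replicate 3. The lowest false discovery rate in the promoter of H2-Ab1 was 8.42e-15 in replicate 2 and 0.00198 in replicate 3. Replicate 3 thus came near to the stricter list there, whose peaks reach 0.001. A further site, chr17:34257681-34257860 at -5438 bp, was found in the stricter lists of both libraries, with 2.75 in replicate 2 and 3.39 in replicate 3, averaging 3.07 ± 0.454 (SD, n = 2). These values lay above 76.2% and 54.9% of the stricter peaks of their libraries, so by rank the site was higher in replicate 2. The site lies at the outermost annotated start of the H2-Ab1 gene, at 34257689, from which no coding transcript is annotated. It held the module at -5454 bp. If promoters were taken at outermost starts only, 2 members would have a promoter peak in both libraries: H2-Ab1 through this site, and H2-DMa through the Brd2 promoter peak at chr17:34119241-34119660 (12.06 and 7.995) in place of its own.

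H2-Aa encodes the alpha chain of I-A. Its promoter peak, chr17:34287781-34288000, had 2.28 in replicate 2 and no call in either list of replicate 3. It held 4 footprints in replicate 2 and none in replicate 3. Between H2-Aa and H2-Eb1, which point away from each other, a pair of intergenic peaks met 1 module each. The peak at chr17:34291681-34291860 had 2.01 and that at chr17:34296141-34296284 had 1.19, both in replicate 2 only. The Y box of the latter's module lies beyond the end of the peak, within the 20 bp by which peaks were widened for the search. In H2-Eb1 an intronic peak at chr17:34313521-34313720 had 2.40 in replicate 2 and 3.61 in the permissive list of replicate 3. The coding promoters of the 3 classical genes thus had stricter peaks in replicate 2 and at best permissive ones in replicate 3.

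Cd74 encodes the invariant chain, which fills the class II groove until a peptide is loaded. Its promoter peak, chr18:60803581-60803857, was the weakest of the 6 stricter promoter peaks in replicate 2, at 0.970, above 37.95% of that library's peaks. Replicate 3 had no call there. An intronic peak at 1181 bp from the Cd74 start site had 1.02 in replicate 2 only. The strongest site of the Cd74 locus, chr18:60787141-60787340, lay between genes and nearest to Rps14, with 2.22 and 2.26 in replicates 2 and 3.

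H2-DMa encodes the alpha chain of H2-DM, the catalyst that exchanges the invariant chain's remnant for a peptide. It stood apart from the other members. Its peak at chr17:34135321-34135560 had 11.8 in replicate 2 and 9.80 in replicate 3, averaging 10.8 ± 1.41 (SD, n = 2). These values lay above 99.3% and 97.2% of the stricter peaks of their libraries. The lowest false discovery rate over all H2-DMa promoter windows was 8.57e-76 in replicate 2 and 4.13e-17 in replicate 3. These windows include the promoter shared with Brd2 that is described next, so the rates are not tied to this peak. The peak at chr17:34135321-34135560 held 3 footprints in replicate 2 and 2 in replicate 3. A second H2-DMa start site shares its promoter with Brd2, a gene for a broadly expressed chromatin reader, and the peak there, chr17:34122501-34122740, had 6.45 and 7.32. The signal at that shared promoter cannot be divided between the genes.

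H2-DMb1 encodes the beta chain of H2-DM. It had no promoter peak in either list of either library and no position in the false discovery rate lists, although a complete module with a gap of 21 bases is centred 44 bp downstream of its start site. H2-DMa and H2-DMb1 thus lay at opposite ends of the members' range, although their products form 1 heterodimer. Part of this sequence is not unique. Of the 469 words of 32 bases within 250 bp of the H2-DMb1 start site, 87.4% occurred once in the reference. In its gene body 67.7% did. For the paralogue H2-DMb2 the values were 92.4% and 66.1%. No source here states how reads matching several places were handled, so H2-DMb1 is uncertain. Their effect on its calls was not tested. H2-DMb2 had a promoter peak of 1.08 in replicate 2 only.

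H2-Oa and H2-Ob encode the chains of H2-DO, an inhibitor of H2-DM that is known from B cells. The H2-Ob promoter peak, chr17:34238721-34238920, had 1.51 in replicate 2 and no call in replicate 3. H2-Oa had no stricter promoter peak. Its permissive promoter peak in replicate 2 had 0.634, with a lowest false discovery rate of 0.00363, and replicate 3 had none. A stricter peak outside the window, at -1219 bp from the H2-Oa start site, had 1.54 in replicate 2 and 1.76 in the permissive list of replicate 3. In the permissive lists, 7 of 9 members had a promoter peak in replicate 2, beside 54.3% of all genes, and 3 of 9 in replicate 3, beside 45.6%. Those 3, H2-DMa, H2-Ab1 and H2-Eb1, had one in both libraries, beside 45.5% of all genes. Ciita and H2-DMb1, 2 of 9, had none in any list, beside 45.6% of all genes.

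The loci merged into 4 stretches, because neighbouring members overlap: 98.4 kb around Ciita on chromosome 16, 117.9 kb and 127.8 kb on chromosome 17, and 58.8 kb around Cd74 on chromosome 18. They held 40 regions of stricter peaks. All 40 were in replicate 2 and 12 were also in replicate 3, with none in replicate 3 alone. Of the 40, 25 were distal, meaning outside every coding gene's promoter, and 7 of these were in both libraries. Another 7 lay in a member's promoter, 1 of them in both libraries, 1 in the promoter that H2-DMa and Brd2 share, in both, and 7 in other genes' promoters, 3 of them in both. The median over the members was 6 regions per locus, beside 3 over all protein-coding genes. For regions found in both libraries the medians were 2 over the members and 1 over all genes. A region in both libraries lay in the loci of 8 of 9 members, the exception being H2-Eb1, beside 63.9% of all genes. The members' loci share regions, 20 of the 40 lying in more than 1 of them, and the genes' lengths and neighbours differ, so the medians describe overlapping neighbourhoods.

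**Figure D2:**
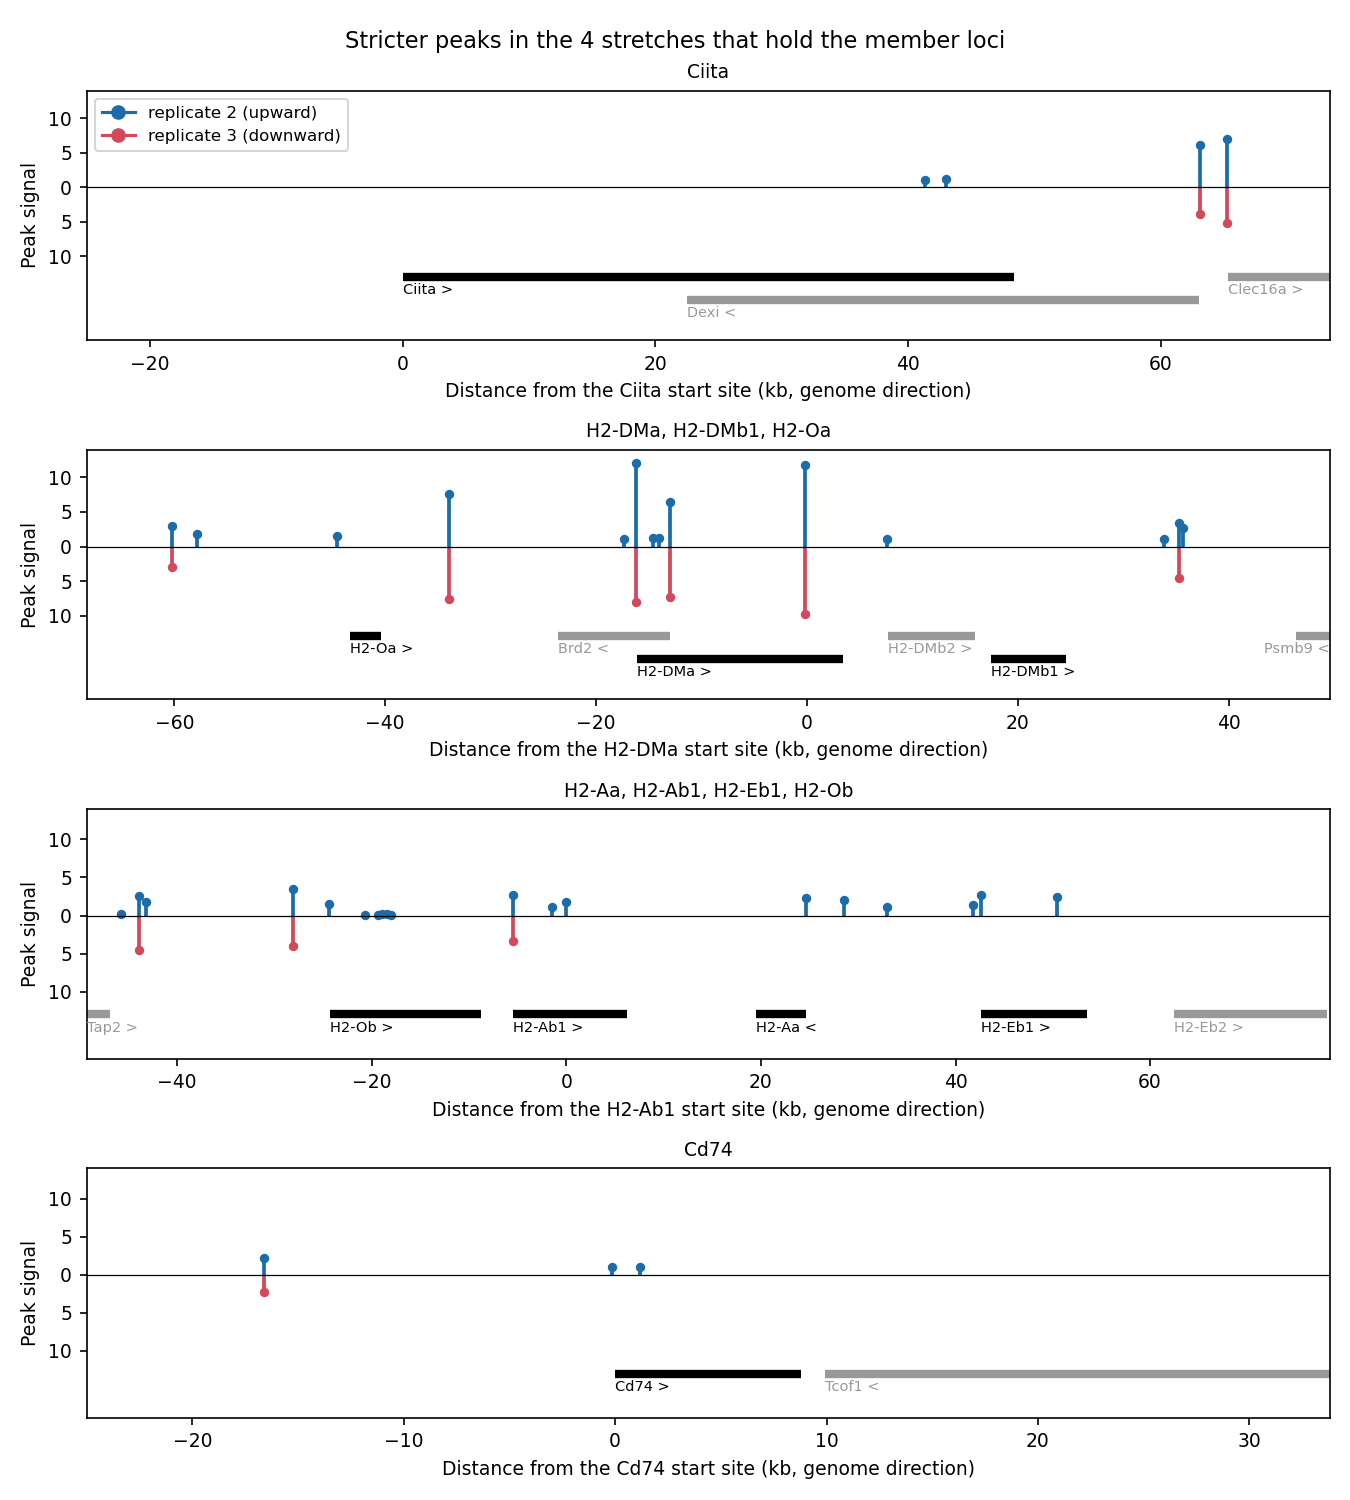
Signal of the stricter peaks in the 4 stretches, replicate 2 upward in blue and replicate 3 downward in red, against distance in kb from a member's start site, with members in black and other coding genes in grey. The strongest sites common to both libraries are at H2-DMa and Brd2, and no peak stands at the Ciita start site.

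Of the 28 regions found in replicate 2 alone, 6 were in the permissive list of replicate 3. Detection in replicate 3 followed the signal in replicate 2. In the strongest decile of replicate 2 peaks, all 6 regions of the members' loci were in the stricter list of replicate 3, beside 99.2% of all peaks. In the next decile it was 2 of 2, beside 93.4%, and in the eighth decile 4 of 8, beside 80.0%. Below that, none of 24 regions in the loci was in that list. The corresponding share of all peaks was 58.8% in the seventh decile, where the loci held 4 regions, and 25.4% in the fifth, where they held 10. The promoters of H2-Aa, H2-Ab1 and H2-Eb1 fell into the seventh and eighth deciles, where the permissive list of replicate 3 held 81.2% and 93.1% of all peaks.

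**Figure D3:**
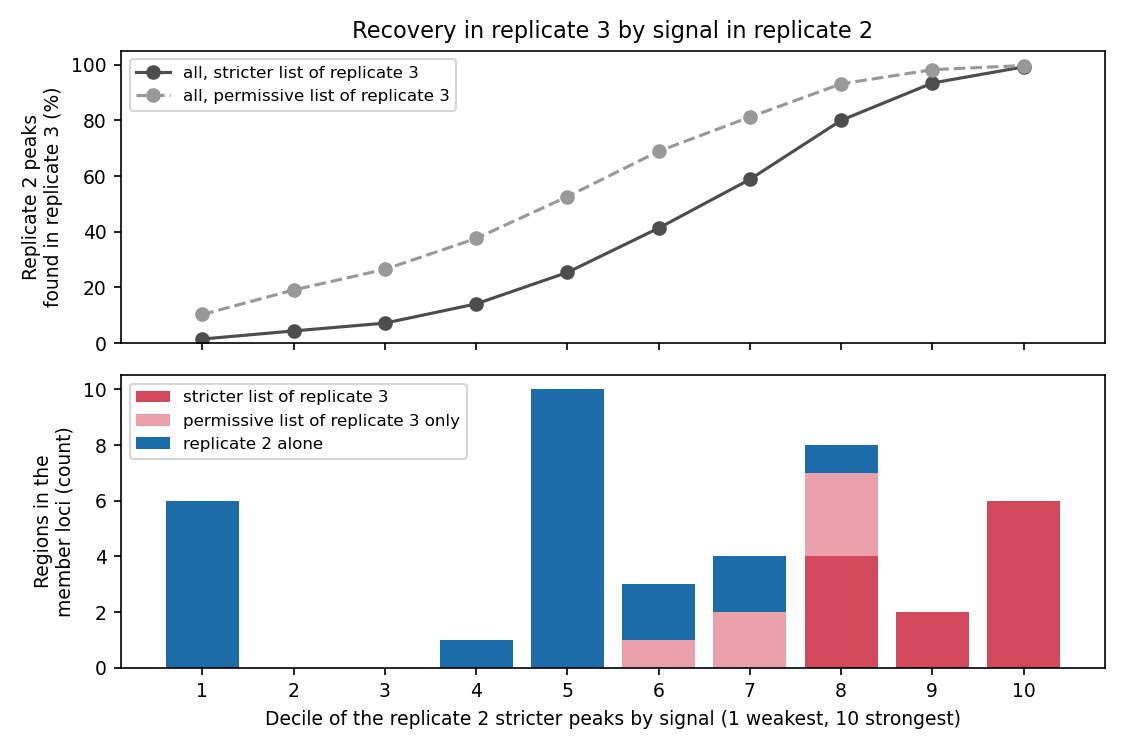
Upper panel, percent of replicate 2 stricter peaks found in replicate 3 for each decile by signal, over all peaks. Lower panel, number of regions in the members' loci in each decile, divided by the list of replicate 3 in which they were found: the strongest deciles hold 6, 2 and 8 regions, of which 6, 2 and 4 are in its stricter list.

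The weakest decile of replicate 2 peaks held 6 regions of the loci, all with signals below 0.2. Such signals were rare, with 65 of 38223 stricter peaks of replicate 2 (0.170%). Of the 6, 5 lay over exons of H2-Ob. With the permissive list, 12 such short stretches lay apart in the H2-Ob gene, with centres between 2919 and 7149 bp from its start site. Their signals were 0.0970 to 0.179, and 9 of them touched exons. Replicate 3 had no peak there. These values are far under the H2-Ob promoter peak of 1.51, and their cause was not tested.

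The modules under the peaks were compared with the whole genome. The pattern occurred 3895 times in the reference chromosomes, 13 times in the members' loci. Of these 13, 8 lay in stricter peaks of replicate 2 (widened by 20 bp) and 2 in those of replicate 3. Without the widening, 7 lay in those of replicate 2. Of all 3895, 30 lay in stricter peaks of replicate 2 (0.770%) and 17 in those of replicate 3 (0.436%). The members' loci thus held 8 of the 30 module peaks of replicate 2 (26.7%). Because the pattern was fitted to these sites, the counts are a description. The module peaks were 0.0785% of all stricter peaks of replicate 2. The 5 matches in the loci without a peak included that of H2-DMb1 and another at -4576 bp from H2-Eb1.

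Outside the members' loci, 9 of the 22 further module peaks of replicate 2 lay on chromosome 17. They included the promoters of the classical class I genes H2-K1, with signals of 10.1 and 5.87 in replicates 2 and 3, and H2-D1, with 17.3 and 16.4. The non-classical class I genes H2-Q4 (7.23 and 6.10), H2-Q7 (4.29 and 3.75) and H2-M3 (5.20 and 4.52) also had a module in the promoter peak, as did B2m (8.33 and 5.42), whose product is the class I light chain. Among promoters with the same boxes, H2-Eb1, H2-Ab1 and H2-Ob had signals of 2.71, 1.81 and 1.51 in replicate 2, all under those of the class I genes named here, while H2-DMa at 11.8 lay among them. Module promoters of genes in neither group covered low and high signals in replicate 2, from 1.29 at BC051142 to 7.46 at Tcam1. A module peak was in the promoter of 17 genes in replicate 2 (0.0779% of protein-coding genes), 4 of them members and 3 of the 14 genes of a class I pathway list.

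**Figure D4:**
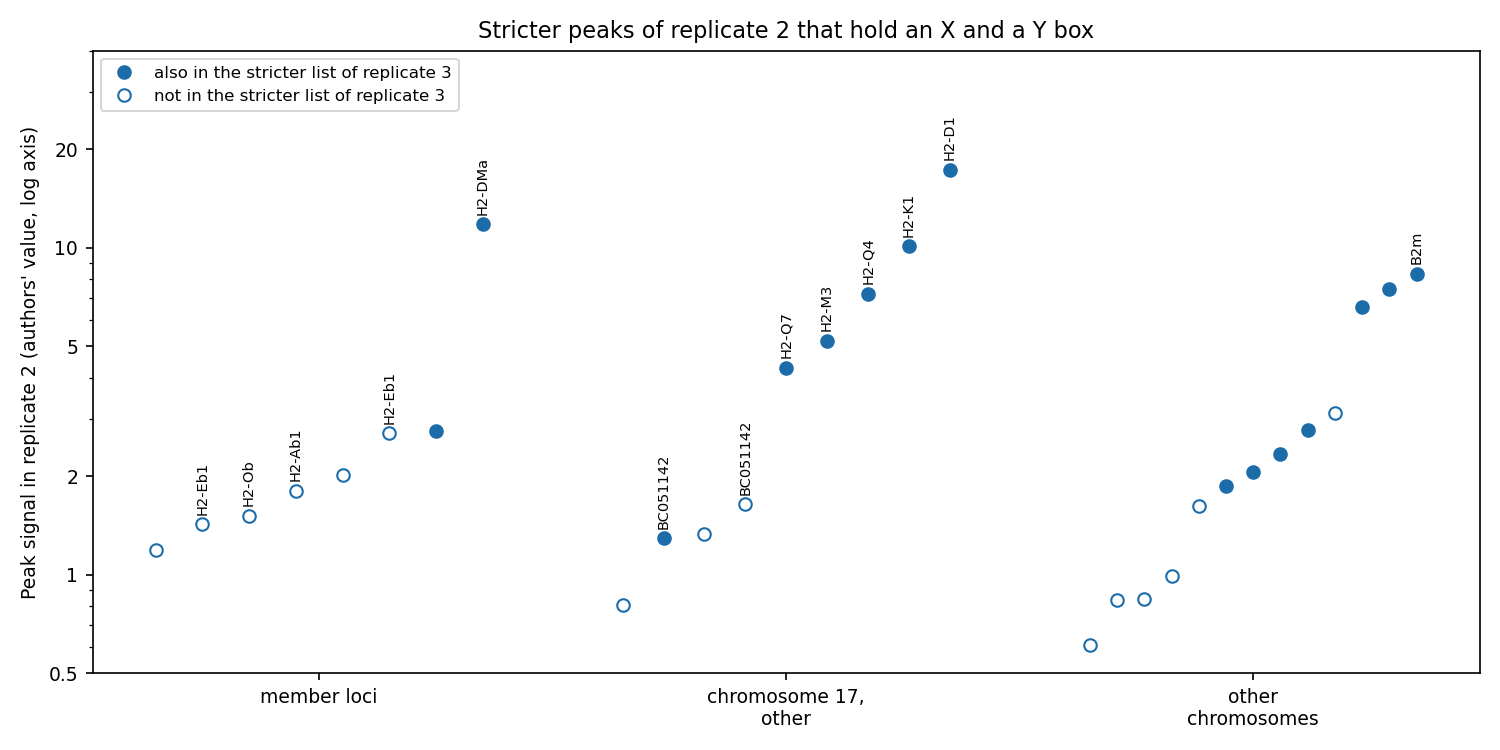
Signal in replicate 2 (log axis) of the 30 stricter peaks that, widened by 20 bp, hold an X and a Y box, by place. Filled points are also in the stricter list of replicate 3, and names give the gene whose promoter holds the module. H2-DMa stands at 11.8 and the other 7 peaks in the members' loci are at 2.75 or less, while the class I genes H2-Q7, H2-M3, H2-Q4, H2-K1 and H2-D1 run from 4.29 to 17.3.

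In the members' loci, footprints of replicate 2 met the X box and mostly stopped before the Y box. In replicate 2 a footprint overlapped the X box in all 8 module peaks of the members' loci and the Y box in 1, the site at -5454 bp from H2-Ab1. Outside the loci the counts in replicate 2 were 15 X boxes and 5 Y boxes of 22. In replicate 3, neither of the 2 module peaks in the loci had a footprint on the X box, and the site at -5454 bp had one on the Y box. Outside the loci, replicate 3 had footprints on 7 X boxes and no Y box of 15. At -41 bp from H2-Ab1, which is in the permissive list of replicate 3, both libraries had a footprint on the X box. The X pattern is longer than the Y pattern and so is more easily overlapped, and the pattern was fitted to the members' sites. These counts are therefore a description. A footprint over the letters does not identify the protein on them.

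**Figure D5:**
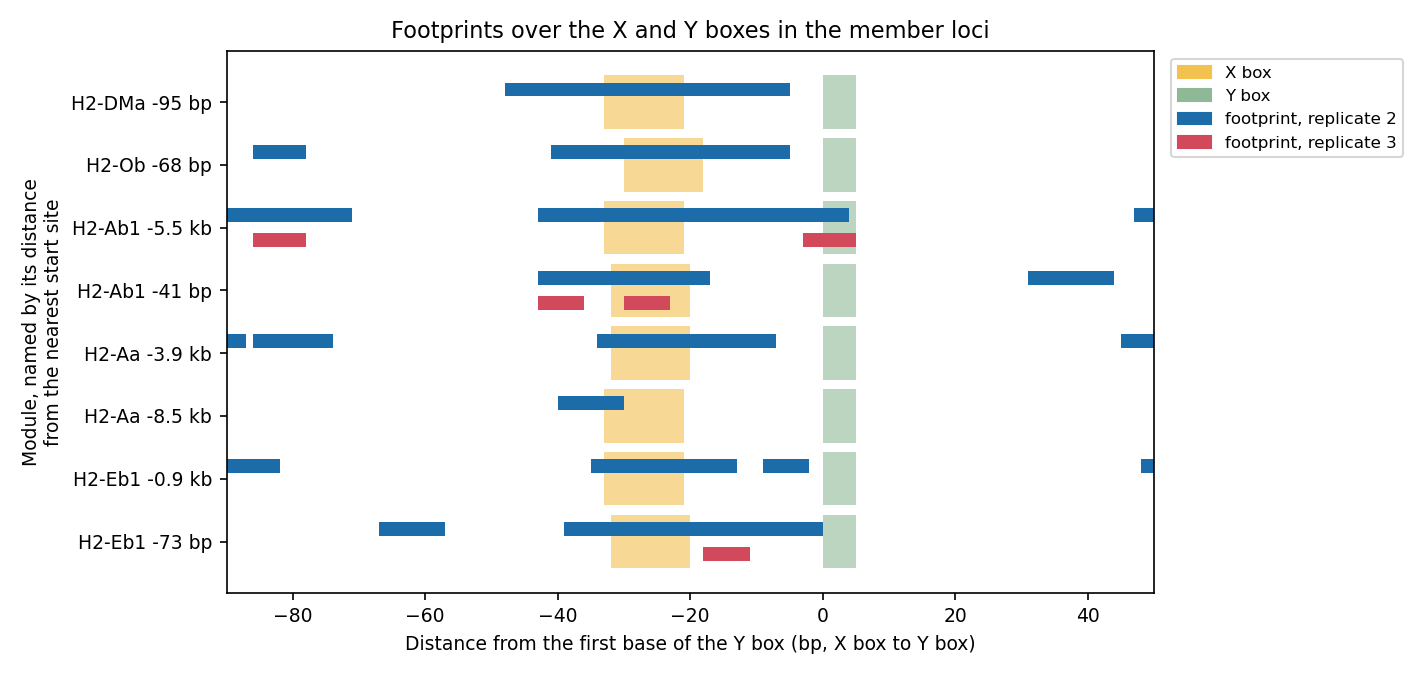
Footprints of replicate 2 (blue) and replicate 3 (red) around the 8 modules, placed by distance in bp from the first base of the Y box (green), with the X box in yellow. Blue bars overlap every X box, at -8454 bp from H2-Aa by its edge alone, and 1 blue bar reaches the Y box.

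The looser search allowed 2 or 3 bases between AC and TGA, either orientation of the Y box and a gap of 15 to 25 bases. It added the promoters of H2-Aa and Cd74, giving 10 matches in stricter peaks of replicate 2 in the loci, each with a footprint over it in that library. It also matched more freely: 0.366% of all stricter peaks of replicate 2 held such a match. In RefSeq promoter sequences (GRCm38.p6, 250 bases before to 50 after a start), CCAAT on either strand, the core of the Y box, was in all 6 members present, H2-Aa, H2-DMa, H2-DMb1, H2-Eb1, H2-Oa and H2-Ob, and in 37.4% of 32851 promoters. TGACG, the core of the CREB site and part of the H2-Aa sequence above, was in H2-Aa alone of the 6 and in 20.8% of promoters. Ciita, H2-Ab1 and Cd74 had no entry.

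The regions of the loci were also searched for another motif. The 12-base core of the CTCF consensus, the site of the insulator protein CTCF, was in 5 of the 40 regions (12.5%). It was in 9.82% of all stricter peaks of replicate 2 and 10.6% of those of replicate 3. All 5 were among the 12 regions found in both libraries, and 4 of them were distal. The share over all regions found in both libraries was not computed, so the 5 of 12 is a description. The 4 matches on chromosome 17 are shown with the core in capitals.
Between H2-Oa and H2-DMa, chr17:34101650-34101677, plus strand: ataaatccCCACCAGGGGGCgctcgcgt
H2-DMa, chr17:34135411-34135438, plus strand: ccgaccttCCACCAGGGGGCggaggtct
Between H2-DMb1 and Tap1, chr17:34170948-34170975, plus strand: acatttgtCCACTAGGTGGCgccaaaga
Upstream of H2-Ob, chr17:34235162-34235189, minus strand: ttacatggCCACCAGATGGCaccagact
Each of these 4 sites had a footprint over the core in both libraries. Their signals in replicates 2 and 3 were 7.63 and 7.54 between H2-Oa and H2-DMa, 3.37 and 4.61 between H2-DMb1 and Tap1, and 3.52 and 4.02 upstream of H2-Ob. The H2-DMa peak, at 11.8 and 9.80, was therefore the one region of the loci with both a CTCF core and an X-Y module. The fifth match, in the Cd74 locus near Rps14, had a footprint in replicate 2 only.

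The loci held 150 footprints in replicate 2 and 33 in replicate 3, or 157 when footprints that share a base are counted once. The median per locus was 27 over the members and 10 over all protein-coding genes in replicate 2. In replicate 3 it was 6 and 2. The promoter held a footprint in replicate 2 for 7 of 9 members, beside 52.8% of all genes, and in replicate 3 for 3 of 9, H2-DMa, H2-Ab1 and H2-Eb1, beside 38.3%.

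The genes for the factors that bind the X and Y boxes, and for the interferon-gamma pathway that induces Ciita, had open promoters. Of 14 genes listed, 13 had a stricter promoter peak in both libraries, beside 40.9% of all genes, and all 14 in replicate 2, beside 50.5%. The RFX subunit genes had signals in replicates 2 and 3 of 4.61 and 3.66 for Rfx5, 8.15 and 8.58 for Rfxank and 5.97 and 6.50 for Rfxap. The NF-Y subunit genes Nfya and Nfyc had 15.6 and 12.8, and 7.66 and 8.72. Creb1, for the factor that joins RFX at the X box, had 9.81 and 7.72. The interferon-gamma receptor gene Ifngr1 had 7.98 and 8.90. The second receptor gene, Ifngr2, was the one outside the stricter list of replicate 3, with 1.92 in replicate 2 and 1.99 in the permissive list of replicate 3. Ciita was thus without a promoter call while every listed gene for its partners and inducers had one in replicate 2.

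Of 9 other class II pathway genes measured (10 listed), 3 had a promoter peak in both libraries, beside 40.9% of all genes. They were the lysosomal protease genes Lgmn (4.30 and 5.47), Ctsl (2.71 and 3.48) and Ctsb (1.31 and 2.21). The protease gene Ctss, which trims the invariant chain, had 0.701 in replicate 2 only. H2-Eb2 and March1, the gene of a ligase that removes class II from the surface, had no promoter peak in either list, and its relative March8 had a permissive one of 0.269 in replicate 2. On the class I side, 11 of 14 pathway genes had a promoter peak in both libraries and all 14 in replicate 2. The shares over all genes were 40.9% and 50.5%. The highest mean ranks were those of H2-D1, the chaperone gene Calr (13.5 and 8.45), and the peptide transporter gene Tap1 and proteasome gene Psmb9, which share a promoter peak (8.48 and 7.90). Nlrc5, the activator of class I genes and the closest counterpart of Ciita, had 5.30 in replicate 2 and 4.20 in replicate 3.

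DNase-seq of a bulk sample cannot tell a weak site open in all cells from one open in a few cells of another kind. Over all genes, 50.5% had a stricter promoter peak in replicate 2 and 40.9% in both libraries, and 45.6% had no permissive one in either. Of 12 B cell markers, none had a stricter promoter peak in either library, and 9 had none in the permissive lists. The 3 with a permissive peak, in replicate 2 only, were Ebf1 (0.410), Blk (0.343) and Bank1 (0.328). Blnk, Cd79a, Ms4a1 and Pax5 were among those with none. A pair of B cell genes outside the list, named after their values were seen, did have peaks in both libraries: Pou2af1 with 3.61 and 2.67, and Cr2 with 1.22 and 1.26. Of 10 dendritic cell markers, Irf8 alone had a stricter promoter peak, with 2.21 and 1.94. Of the rest, 6 had no peak in any list, among them Cd209a. Those with permissive peaks included Batf3 in both libraries (0.336 and 0.949) and Ccr9 in replicate 2 (0.403). Of 10 macrophage and monocyte markers, 3 had one in replicate 2 and none in replicate 3, among them Itgam (0.657) and Mertk (0.612), while Cd14, Adgre1 and C1qa had no peak in any list. Of the 8 CD8 T cell markers, 7 had one in replicate 2 and 2 in both, Cd8b1 with 4.17 and 3.16 and Themis with 2.59 and 1.90, while Cd8a had only a permissive peak of 1.18 in replicate 2. Summed over each list, stricter promoter signals in replicate 2 were 21.1 for the members and 15.6 for CD8 T cell markers. They were 0 for B cell, 2.21 for dendritic cell and 2.34 for macrophage markers. In replicate 3 the sums, in the same order, were 9.80, 5.06, 0, 1.94 and 0. The lists differ in size and a gene without a peak counts as 0, so the sums describe each list only. H2-DMa alone gave 11.8 of the members' sum in replicate 2 and all of it in replicate 3: without H2-DMa the members summed to 9.27 in replicate 2 and 0 in replicate 3. The part of any other cell type in the members' peaks was not tested beyond these values.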

How the data were processed

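Each of the 2 libraries came with 2 peak lists, a list of false discovery rates and a list of footprints, on mm10 per the labels. The authors deposited 1 signal value per peak, whose scaling is not stated, and q-values (false discovery rates) up to 0.05. Per the notes deposited with the libraries, each list was made from 1 library without pooling. No source used here names the aligner or the callers. The footprint lists carry 1 constant, so only intervals were used. The shorter list is called stricter and the longer permissive. Stricter peaks reach a false discovery rate of 0.001.

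Genes and start sites came from the GENCODE M21 basic annotation, and sequence from GRCm38. Regions were unions of stricter peaks, and found in both libraries when peaks shared 1 bp. Motifs were searched on both strands, and 32-base words were counted over all chromosomes. Signals below 2 were whole steps within 0.05 of a step in all 25650 and 4539 values of replicates 2 and 3. The members, gene lists and most choices were made with earlier results of these data known. All 9 members were named, with genes whose promoters meet their loci and, from each list, up to 4 with the highest mean signal rank and up to 3 without a promoter peak. Further genes, such as Rfx5, Creb1, Ctss, Nlrc5, the module-bearing class I genes and several other markers, were named after their values were seen. Some listed marker genes are not reported here by name. With 1 group of 2 libraries no test was run. Alternatives changed the peak list, promoter window, start sites, flank, overlap, number of peaks and libraries. Those on the annotation, weak peaks and the module pattern were chosen after seeing the data. The counting was tested on simulated data. Python 3.11.15, numpy 2.4.6, pysam 0.24.0, samtools 1.23.1 and matplotlib 3.10.9 were used.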

Additional observations from a re-analysis of the deposited data

How the results depend on the processing

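Of 56 alternatives over 8 results, 38 left a count within 1.5 times its value, or the median within the spread between libraries, and 18 did not. The members with a promoter peak in both libraries were 3 with the permissive list and 2 with outermost start sites, against 1. Leaving out a library gave 1 to 6, because replicate 2 alone called 6. The regions in the loci found in both libraries were 4 with the gene bodies alone and 6 with flanks of 10 kb, against 12, and 12 to 40 with 1 library left out. Regions found in either library were 64 with the permissive list, 21 with the gene bodies alone and 22 with the 17061 strongest peaks of each library, against 40. Without signals below 0.2 they were 34. Footprints were 66 in the gene bodies alone and 90 inside stricter peaks of the same library, against 157, and 33 to 150 with 1 library left out. The median of 6 regions per locus was 10 with the permissive list, and 2, 3 and 14 with flanks of 0, 10 and 50 kb. The module peaks in the loci were 8 in replicate 2 and 2 without it, so they rest on that library. Over all protein-coding genes, the count of 8917 with a stricter promoter peak in both libraries stayed within 1.5 times under every alternative run. The 6 members with a promoter peak in either library were 5 to 7 under the other alternatives. With 1 library left out they were 1 to 6, 1 being the count without replicate 2.

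No paired analysis was possible because both libraries belong to 1 group and no test was run. Replicate 3 has fewer calls throughout, which limits what a missing call there can show. Whether the libraries share an animal and how the signal was scaled are unknown, and no call does not show closed chromatin.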
